A study of Bos taurus with 18 samples.

Results

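The genes described here write, copy and remove DNA methylation: the methyltransferases DNMT1, DNMT3A and DNMT3B, the catalytically inactive family member DNMT3L, the methyltransferase partner UHRF1, the oxidases TET2 and TET3 and the glycosylase TDG. They were chosen as a list of 10 gene symbols, and every probe carrying one of those symbols was taken. The list matched 8 of the 15229 genes named on the array and 18 of its 43794 probes. TET1 and MBD2 were not analysed here. A filter on dim probes left 17 of the 18 member probes and 39991 of all probes.

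Methylation of cytosine in CpG pairs is laid down by DNMT3A and DNMT3B, which DNMT3L can stimulate, and is copied to the new strand at replication by DNMT1, which UHRF1 brings to the replicated site. TET enzymes oxidise methylcytosine, and TDG cuts out the more oxidised forms so that base excision repair can restore cytosine. In mammalian embryos methylation falls after fertilisation and is laid down again from about the blastocyst stage on, when the outer trophectoderm and the inner cell mass have separated.

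RNA of bovine blastocysts was measured on 18 one-colour Agilent arrays, 3 in each of 6 groups. Blastocysts were collected when the blastocoel, the fluid cavity, had formed (day6, day7 and day8), or were kept in culture for 1 extra day (day6+1 and day7+1) or 2 extra days (day6+2) after it formed. The day6+1 and day7 groups were thus collected on the same day of culture, as were day6+2, day7+1 and day8. The culture protocol, given for 9 of the 18 samples (day6, day6+2 and day8), describes fertilisation in vitro with frozen semen of a single bull and co-culture on VERO cells, a monkey kidney line. That the other 3 groups were made in the same way is not stated. RNA was amplified in 2 rounds before labelling. How many embryos made up a sample, and whether replicates came from separate cultures, is not given. The p-values therefore reflect the spread between these samples, which may be technical.

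Array medians of the raw signal were between 157 and 302 intensity units and those of the local background between 14 and 21. The share of probes brighter than the negative controls was 72.0% to 81.1%. Arrays correlated with one another at r = 0.952 to 0.982. The first principal component took up 18.2% of the variance, and it followed 400 non-member probes whose mean log2 level was 11.51 on day7 replicate 1, 10.79 on day6+1 replicate 1 and 10.77, 10.71 and 10.26 on the day8 arrays, against 8.43 to 9.60 on the other 13 arrays. Day7 replicate 1 and day6+1 replicate 1 thus stood apart from the other arrays of their groups, and the differences that leaving them out moved most are given with and without them. All 11 trophectoderm markers kept were above the negative controls on every array, as were 6 of 8 epiblast and 5 of 7 hypoblast markers, the last being the early endoderm. Of the oocyte markers 5 of 9 were above them on all arrays, at a mean log2 level of 7.56 to 7.71 in every group.

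Levels below are log2 signals after background correction and quantile normalization, differences are log2 differences between group means, and a probe is said to have risen or fallen where its p, adjusted over all 39991 probes, was under 0.05. In whole blastocysts, fewer cells of a type and less RNA per cell cannot be told apart. A level is not compared between probes. Groups of 3 arrays that do not overlap are common in these data. This held for 17.9% of all probes in day6+2 against day6 and 15.1% in day6+1 against day6. It held for 12.8% in day7 against day6, 10.4% in day7+1 against day7 and 8.41% in day6+2 against day6+1. The member probes without overlap in these 5 pairs were 5, 5, 4, 4 and 4 of 17. The probes differ in how far they rose above the negative controls: both DNMT3L probes, all 3 TET2 probes, the DNMT1 probe kept and 3 of the 5 TDG probes lay at log2 levels of 6.49 to 8.39, near those controls, whereas the DNMT3A, DNMT3B, UHRF1 and TET3 probes and the other 2 TDG probes were above them on all 18 arrays.

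Of the 17 member probes, 2 passed in day6+2 against day6, where 3.43% of all probes did. In day6+1 against day6 1 passed (1.21% of all probes), and in a trend per extra day of culture 2 passed (3.64%). All that passed were probes of de novo methyltransferases, which were above the negative controls on every array. DNMT3B (probe EMBV3_30532) and DNMT3A (EMBV3_26359) were higher after 2 extra days of culture than at cavity formation on day 6, by 1.87-fold and 2.22-fold. Another DNMT3A probe, EMBV3_24520, was 1.64-fold higher after 1 extra day (adjusted p = 0.0474 in limma), and passed under 9 of 28 alternatives. It did not pass after 2 extra days (adjusted p = 0.0783), nor did EMBV3_26359 after 1. No probe of DNMT1, UHRF1, DNMT3L, TET2, TET3 or TDG passed the threshold in any of the 12 comparisons. The DNMT1, DNMT3L and TET2 probes and most TDG probes lay near the negative controls. Not passing does not show that a gene was unchanged: in the 9 pairwise comparisons TET3 differed most, by up to 2.03 log2 units.

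DNMT3B, which methylates repeats and centromeric satellites in mouse and human, had log2 levels of 10.96, 11.09 and 10.81 on the 3 day6 arrays, 11.06, 11.09 and 11.78 on the day6+1 arrays and 11.41, 12.08 and 12.08 on the day6+2 arrays. All day6+2 arrays lay above all day6 arrays, and the day6+1 arrays spanned the gap, with 2 of them at the day6 level. The group means were 10.95 ± 0.14, 11.31 ± 0.41 and 11.85 ± 0.39 (SD, n = 3 each). The rise from day6 to day6+2 was 0.90 ± 0.24 (SE) with an adjusted p of 0.0355 in limma, and its 95% interval ran from 0.41 to 1.39. Neither 1-day step passed: the difference was 0.36 from day6 to day6+1, and 0.55 from day6+1 to day6+2.

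Among embryos whose cavity formed later, DNMT3B was at 10.79, 11.20 and 11.28 on the day7 arrays, 12.20, 11.94 and 11.58 on the day7+1 arrays and 10.58, 10.79 and 11.14 on the day8 arrays. Every day7+1 array lay above every day7 and day8 array, and day7+1 and day7 did not overlap for 10.4% of all probes. That share was not computed for day7+1 against day8. After day 6 the difference was 0.36 for 1 extra day and 0.90 for 2 extra days. That of day7+1 from day7, also 1 extra day, was 0.82 ± 0.24 (SE), but did not pass (adjusted p = 0.409 in limma). In that comparison 0 of the 17 member probes and 0.015% of all probes passed, and no slide held arrays of both groups. The 6 group means came in the order day8, day6, day7, day6+1, day6+2 and day7+1, and the arrays of each neighbouring pair in that order overlapped.

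DNMT3A, the other de novo enzyme, had 3 probes. Which transcript each detects is not given in the sources used here. EMBV3_26359 was at 10.61, 10.74 and 10.12 on the day6 arrays, 10.47, 10.30 and 11.15 on the day6+1 arrays and 11.59, 12.06 and 11.28 on the day6+2 arrays. The day6+2 arrays lay above all those of day6 and day6+1. The rise from day6 to day6+2 was 1.15 ± 0.29 (SE; adjusted p = 0.027 in limma), with a 95% interval from 0.55 to 1.76. From day6 to day6+1 the difference was 0.16, and from day6+1 to day6+2 it was 1.00, with an adjusted p of 1 in limma, in a comparison in which 0% of all probes passed (1346 had an unadjusted p under 0.05).

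At the later formation days the same probe read 10.68, 10.66 and 10.67 on the day7 arrays, 11.53, 11.12 and 10.92 on the day7+1 arrays and 10.10, 9.92 and 11.20 on the day8 arrays. All day7+1 arrays lay above the day7 arrays, while day8 replicate 3 stood well above the other 2 day8 arrays. In the order of group means, day8, day6, day6+1 and day7 each overlapped with the next, day7 and day7+1 did not overlap, and day7+1 and day6+2 did. Single arrays of day8 (11.20) and day6+1 (11.15) lay among those of day7+1.

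**Figure D1:**
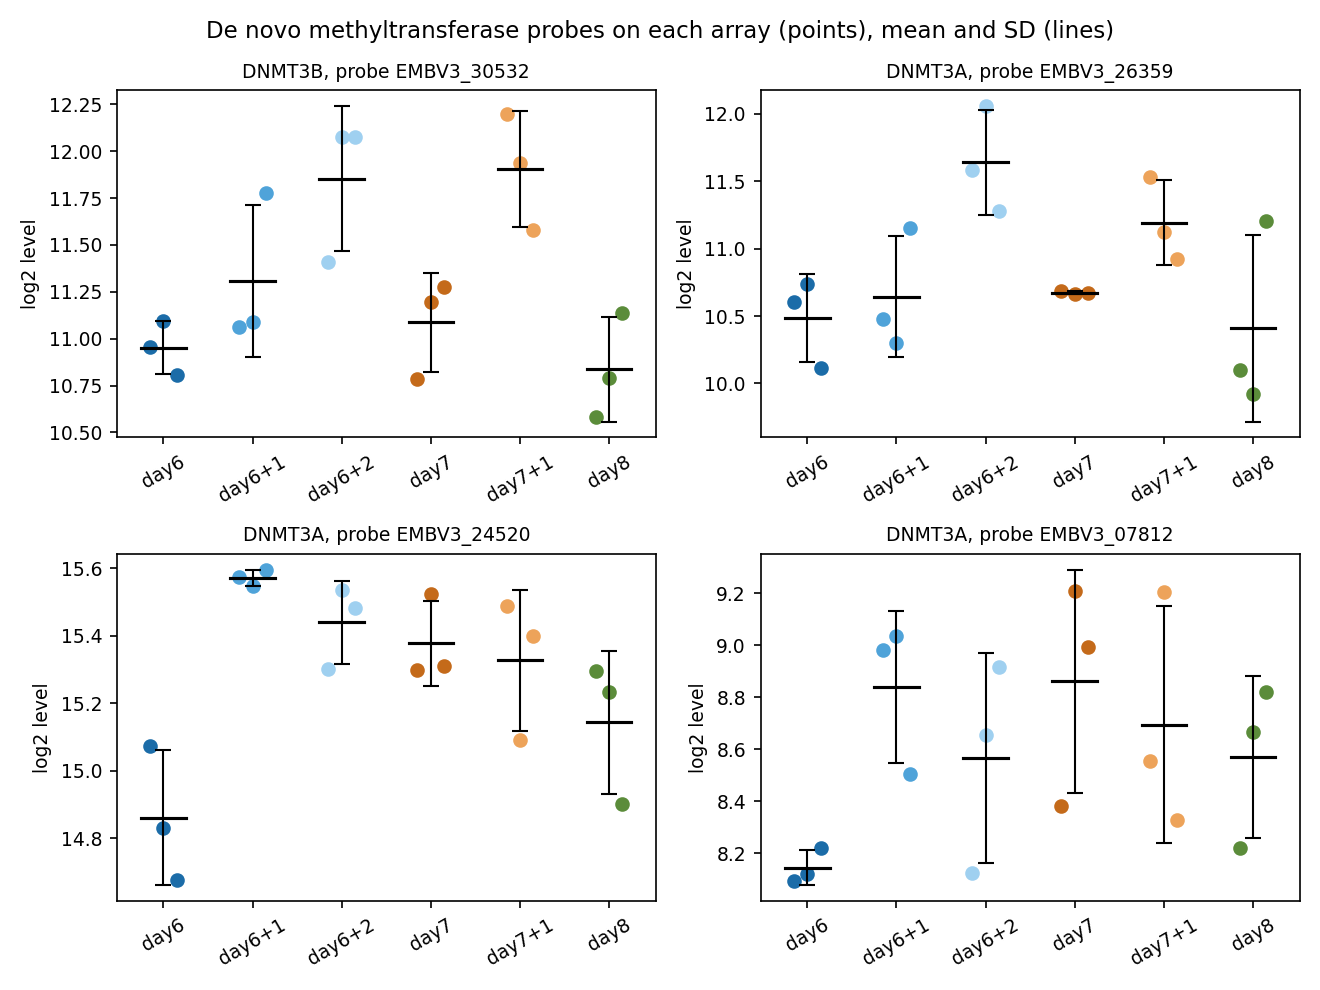
Log2 levels (vertical axis, each panel with its own range) of the DNMT3B probe and the 3 DNMT3A probes on each array (points) by group (horizontal axis), with the mean (bar) and SD (whiskers) of 3 arrays. DNMT3B and EMBV3_26359 are highest in day6+2 and day7+1, whereas EMBV3_24520 and EMBV3_07812 are lowest in day6.

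EMBV3_24520 was bright, with raw signals of 27160 to 48543 intensity units, though at the scanner's limit on 0 arrays. It read 15.07, 14.83 and 14.68 in day6 and 15.57, 15.55 and 15.59 in day6+1. The 3 day6+1 arrays lay within a narrow band above every day6 array. This rise of 0.71 ± 0.18 (SE) had an adjusted p of 0.0474 in limma, just under the threshold, and it did not pass without day7 replicate 1 (0.71, adjusted p = 0.0539) or without day6+1 replicate 1 (0.71, adjusted p = 0.114). It passed with 4 of the 18 arrays left out singly, and without any 1 of the 6 arrays compared it was 0.62 to 0.82 with an adjusted p of 0.0569 to 0.177. With the slide as a fixed block it was 0.86 (adjusted p = 0.368), and between the single arrays of each group that shared slide 4 it was 0.92.

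The other groups lay between these levels on the same probe. It read 15.30, 15.54 and 15.48 in day6+2, 15.30, 15.52 and 15.31 in day7, 15.49, 15.09 and 15.40 in day7+1 and 15.29, 15.23 and 14.90 in day8. Every day6+2, day7 and day7+1 array lay above every day6 array, and day8 overlapped with day6. The share of all probes without overlap was not computed for day7+1 against day6. The difference of day6+2 from day6 was 0.58 ± 0.18 (SE; adjusted p = 0.0783 in limma). It passed with each array centred on its median (0.76, adjusted p = 0.026), in the authors' deposited table (0.58, adjusted p = 0.0472) and with a variance that depends on intensity (0.58, adjusted p = 0.0132).

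The third DNMT3A probe, EMBV3_07812, was at 8.09, 8.12 and 8.22 on the day6 arrays, and between 8.12 and 9.21 on the other 15. Its day6+1 and day7 means were higher than that of day6 by 0.69 ± 0.26 and 0.72 ± 0.26 (SE), with adjusted p of 0.281 and 0.322 in limma. Its day6+2 arrays, at 8.12, 8.66 and 8.91, overlapped with those of day6, and the 3 probes of the gene differed in which group was highest.

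In day6+2 against day6, 2 of the 17 member probes passed, both upwards, against 3.43% of all probes in either direction and 2.22% upwards. The median difference of the 17 was 0.09, against -0.02 over all probes, and 10 were higher and 7 lower. In day6+1 against day6, 1 of the 17 passed, upwards, against 1.21% of all probes in either direction and 0.845% upwards, with a median of 0.16 against -0.02. With 17 probes these shares rest on 1 or 2 probes each.

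Trophectoderm markers moved with these comparisons. Their mean log2 level was 11.22 to 11.61 on the day6 arrays, 12.07 to 12.17 on the day6+1 arrays and 12.20 to 12.39 on the day6+2 arrays, with no overlap of day6 and either group. They were at 11.90 to 11.94 in day7, 12.07 to 12.15 in day7+1 and 11.97 to 12.09 in day8. Epiblast markers averaged 9.67 to 9.78 in day6, 9.69 to 9.93 in day6+1 and 9.73 to 9.85 in day6+2, which overlapped. Hypoblast markers were at 10.30 to 10.50 in day6, 10.37 to 10.57 in day6+2 and 9.80 to 10.26 in day8, the lowest group.

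Markers of cells that the co-culture or the oocyte's surroundings could leave were also read. The 8 kidney epithelial and fibroblast markers kept, of which 5 were above the negative controls on all arrays, averaged 7.94 to 8.15 in day6, 7.94 to 8.29 in day6+1, 8.21 to 8.33 in day6+2, 7.85 to 8.36 in day7, 8.23 to 8.35 in day7+1 and 8.10 to 8.13 in day8. Their group means were highest in day7+1 and day6+2, as were those of DNMT3B and EMBV3_26359, and day6 and day6+2 did not overlap. The 6 cumulus and granulosa markers kept, 4 of them above the negative controls on all arrays, averaged 7.82 to 8.28 in day6, 8.25 to 8.31 in day6+1, 8.23 to 8.48 in day6+2 and 8.02 to 8.15 in day8. The part of any of these marker levels in the DNMT3A and DNMT3B differences was not tested.

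Over all 18 arrays, with formation day and extra days as numbers in a linear model, 2 of the 17 probes rose with extra culture, against 3.64% of all probes that changed in either direction and 2.36% that rose. DNMT3B rose by 0.52 ± 0.12 per extra day (SE; adjusted p = 0.0109 in limma) and DNMT3A EMBV3_26359 by 0.57 ± 0.14 (adjusted p = 0.0173). In this design the day6+1 and day8 arrays carry no weight in the slope with extra culture. That slope thus rests on day6, day6+2, day7 and day7+1, and is not separate from the day6+2 against day6 difference. Leaving out the day8 arrays, a choice made after seeing the data, changed the spread and the adjusted p alone (0.00587 for each). EMBV3_26359 did not pass without day6 replicate 3 (0.51, adjusted p = 0.071) or day6+2 replicate 2 (0.48, adjusted p = 0.0908).

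Slides were inferred from a number in the names of the scans, as the sample titles name none. By that number, slides 1 and 4 held both day6 and day6+2. DNMT3B differed by 0.72 between the 2 arrays of each group on slide 1 (adjusted p = 0.223 in limma) and by 1.27 between the single arrays on slide 4. DNMT3A EMBV3_26359 differed by 1.15 on slide 1 (adjusted p = 0.0147) and by 1.16 on slide 4.

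The call of DNMT3B in day6+2 against day6 was also lost without day6 replicate 1 (0.90, adjusted p = 0.102), day6 replicate 2 (0.97, adjusted p = 0.0741), day6 replicate 3 (0.83, adjusted p = 0.128), day6+2 replicate 2 (0.79, adjusted p = 0.182) and day6+2 replicate 3 (0.79, adjusted p = 0.15). That of EMBV3_26359 was lost without day6 replicate 1 (1.21, adjusted p = 0.0613), day6 replicate 3 (0.97, adjusted p = 0.139), day6+2 replicate 1 (1.18, adjusted p = 0.0711) and day6+2 replicate 2 (0.95, adjusted p = 0.18).

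Day6+2 and day8 blastocysts were collected on the same day of culture, with cavities of different age. None of the 17 member probes passed between them, against 0.553% of all probes, but 3 came close. DNMT3B was lower in day8 by a difference of -1.02 ± 0.24 (SE; adjusted p = 0.0526 in limma) and EMBV3_26359 by one of -1.23 ± 0.29 (adjusted p = 0.054). TET3 was higher by 2.03 ± 0.51 (adjusted p = 0.0673). On each of the 3 probes the arrays of day6+2 and day8 did not overlap, which held for 6 of the 17 and for 15.3% of all probes. All 3 passed with background subtraction and when only the 6 arrays of these groups were fitted, and DNMT3B and EMBV3_26359 passed with the replicate number as a block (adjusted p = 0.033 and 0.0466). No slide held arrays of both groups, so the slide and the group cannot be told apart.

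**Figure D2:**
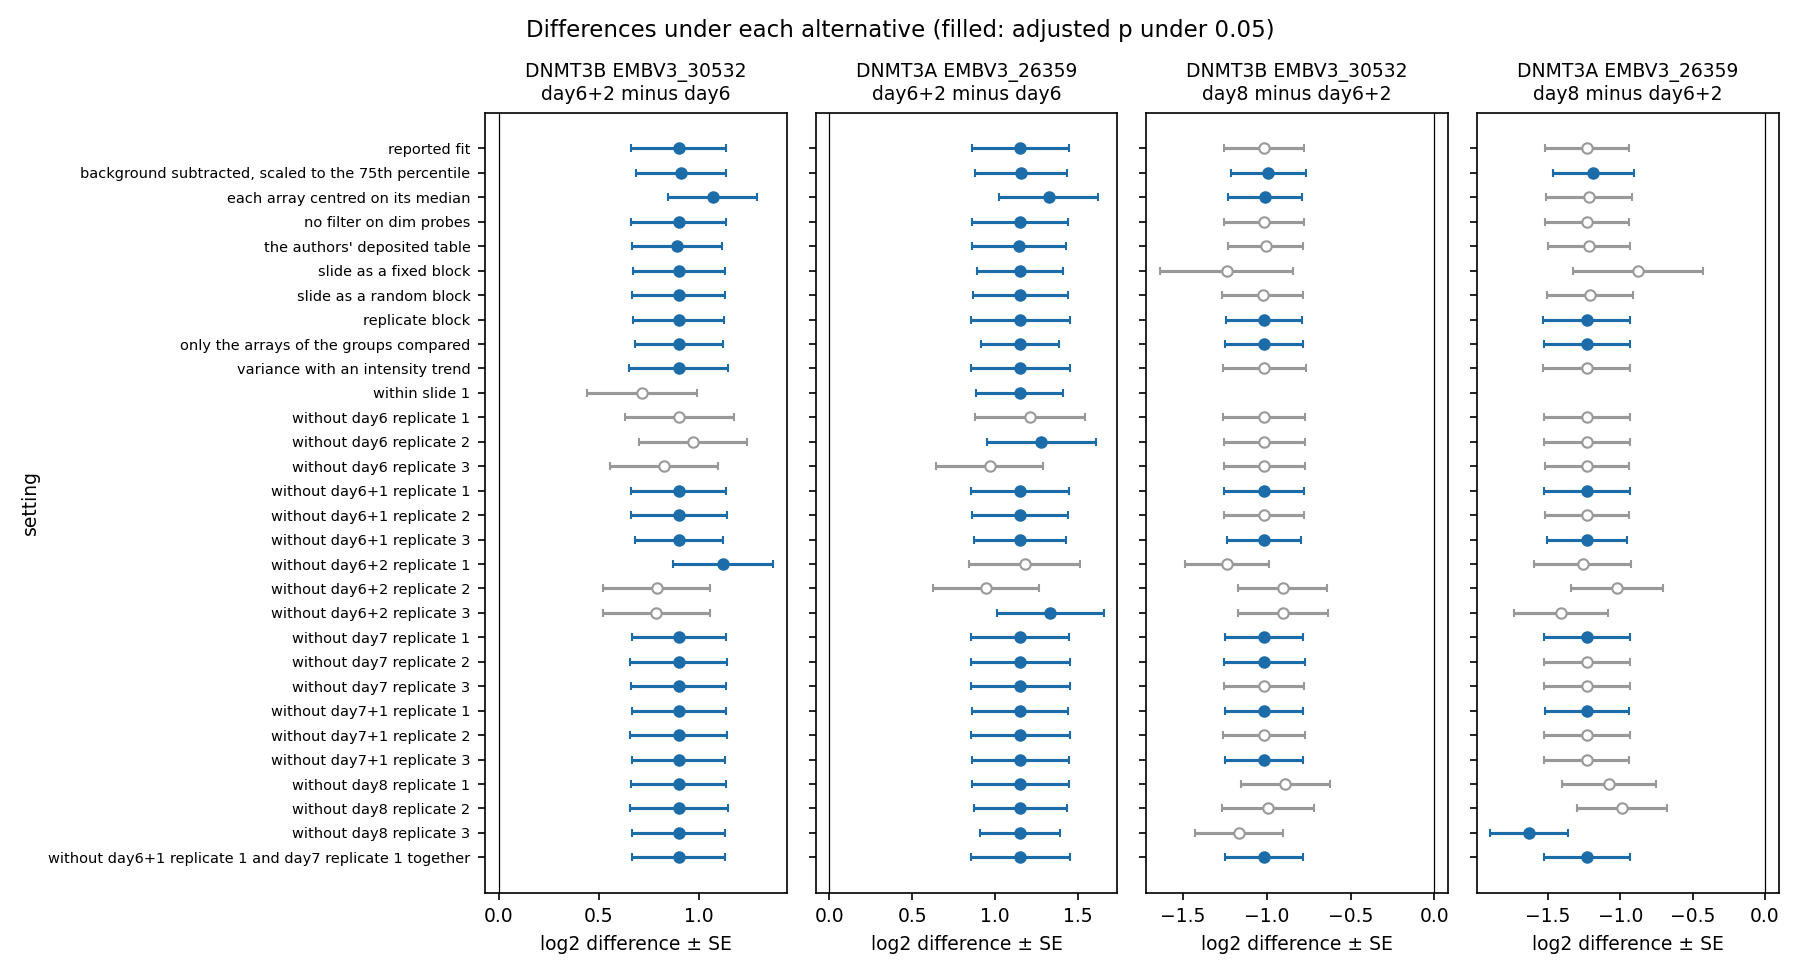
Log2 difference with its SE (horizontal axis) of DNMT3B EMBV3_30532 and DNMT3A EMBV3_26359 in day6+2 minus day6 and in day8 minus day6+2, for the reported fit and each alternative (vertical axis), with filled points for an adjusted p under 0.05. No estimate crosses 0: DNMT3B in day6+2 minus day6 lies between 0.72 and 1.12, and EMBV3_26359 between 0.95 and 1.33.

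DNMT3L, which lacks catalytic activity and binds the de novo enzymes, was read by 2 probes, each above the negative controls on 14 of 18 arrays. Their log2 levels spanned 6.76 to 7.48 (EMBV3_04252) and 6.94 to 7.61 (EMBV3_32680) over all arrays. The largest difference of either probe was -0.37, for EMBV3_04252 between day6+2 and day6+1, and none passed in any comparison.

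DNMT1, the maintenance enzyme, had 2 probes. EMBV3_08570 was above the negative controls on 0 of 18 arrays and was not tested. EMBV3_09383 read 7.24, 8.08 and 7.67 in day6, 7.34, 7.96 and 7.73 in day6+1, 7.21, 7.19 and 7.30 in day6+2, 7.84, 7.39 and 7.67 in day7, 7.26, 7.77 and 7.02 in day7+1 and 7.25, 7.04 and 6.86 in day8. Day8 was lowest, with only 1 of its 3 arrays above the negative controls, and day6 replicate 1 overlapped with it. The difference of day8 from day6 was -0.61 ± 0.23 (SE; adjusted p = 0.208 in limma), and per day of later formation it was -0.31 ± 0.10 (adjusted p = 0.205). None of the 17 probes passed in either, against 1.43% and 0.245% of all probes.

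UHRF1, which reads hemimethylated CpG sites, was above the negative controls on all arrays. It read 8.81, 9.03 and 8.93 in day6, 8.84, 8.88 and 8.74 in day6+1, 7.95, 8.66 and 9.06 in day6+2, 8.45, 8.65 and 8.71 in day7, 8.39, 8.80 and 8.20 in day7+1 and 8.65, 8.91 and 8.41 in day8. All day7 arrays lay below all day6 arrays, and day6+2 was the most scattered group, with replicate 1 the lowest of the 18 arrays. The difference of day6+2 from day6 was -0.37 and that of day7 from day6 -0.32, and neither passed.

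TET3, the TET enzyme that acts on the paternal genome of the mouse zygote, varied most among the members, over 3.54 log2 units. It read 9.22, 9.57 and 10.57 in day6, 11.75, 10.15 and 9.35 in day6+1 and 9.36, 9.13 and 9.32 in day6+2. Levels in the later groups were 12.67, 10.27 and 11.43 in day7, 9.16, 10.15 and 10.20 in day7+1 and 11.19, 11.15 and 11.55 in day8. The day8 arrays were uniformly high and the day6+2 arrays uniformly low, whereas day6+1 and day7 each spread over more than 2 log2 units.

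Against day6, TET3 was higher by 1.51 ± 0.51 in day8 (SE; adjusted p = 0.144 in limma) and by 1.67 ± 0.51 in day7 (adjusted p = 0.199), and neither passed. No member probe passed in day7 against day6, in which 0.268% of all probes did. Leaving out day7 replicate 1 and day6+1 replicate 1 together cannot move the difference of day8 from day6, but lowered its SE to 0.34, and it passed (adjusted p = 0.0126), as it did when only the 6 arrays of day6 and day8 were fitted (adjusted p = 0.0105). The difference of day7 from day6 was 1.06 without day7 replicate 1 (adjusted p = 0.494). Without those same 2 arrays the slope of TET3 per day of later formation was 0.64 and passed (adjusted p = 0.0442), against 0.49 with all arrays. Those 2 arrays were singled out by the first principal component, which TET3 follows, and had the highest TET3 levels, 12.67 and 11.75. Leaving them out thus lowers the spread of TET3 by construction, and passes without them are no separate support. Day6 shared no slide with day7 or day8. From day7 to day7+1 the TET3 difference was -1.62 ± 0.51 (adjusted p = 0.457), and -1.01 without day7 replicate 1 (adjusted p = 0.68).

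TET3 moved with the 400 probes that follow the first principal component. Over the 18 arrays its level correlated with the mean of that set at r = 0.94, and the arrays with the highest set means, day7 replicate 1, day6+1 replicate 1 and the day8 arrays, were 5 of the 6 with the highest TET3. DNMT3B correlated with the same mean at r = -0.66, EMBV3_26359 at -0.54 and TDG EMBV3_30285 at -0.46. The other 13 member probes lay between -0.38 and 0.35. These correlations describe arrays of 6 groups that share slides and normalization, and the part of this component in the differences between groups was not tested.

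**Figure D3:**
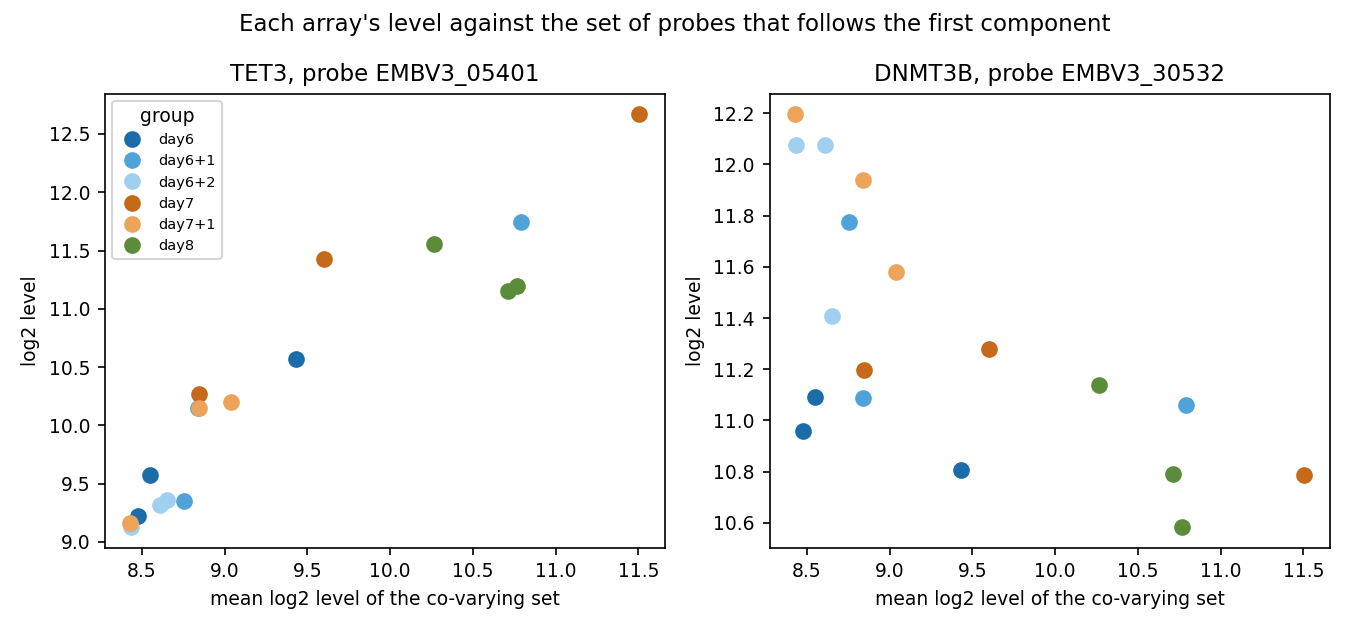
Log2 level of TET3 (left) and DNMT3B (right) on each of the 18 arrays (vertical axes) against the mean log2 level of the 400 probes that follow the first principal component (horizontal axis), coloured by group. TET3 climbs with the set mean from 9.13 to 12.67, and DNMT3B is at most 11.14 on the 5 arrays with set means above 10.

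TET2, which converts methylcytosine to hydroxymethylcytosine, was dim on its 3 probes. EMBV3_11056 was above the negative controls on 9 arrays, EMBV3_32877 on 15 and EMBV3_13726 on 17. The last of these read 7.64, 8.39 and 7.09 in day6, 7.34, 8.16 and 7.55 in day6+1, 7.36, 7.36 and 7.80 in day6+2, 6.58, 7.21 and 7.49 in day7, 7.09, 7.21 and 8.14 in day7+1 and 7.21, 7.86 and 7.55 in day8. Each group overlapped with every other, and the largest difference in the 9 comparisons, day7 minus day6, was -0.62, or -0.36 without day7 replicate 1 and day6+1 replicate 1 together. The other 2 probes differed by at most 0.33 in size in those 9.

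TDG, which removes thymine from mismatches and oxidised methylcytosine, had 5 probes, which did not move together. EMBV3_30285 read 10.36, 9.19 and 9.77 in day6, 8.42, 9.10 and 10.21 in day6+1, 10.06, 9.92 and 10.33 in day6+2, 9.23, 9.24 and 10.75 in day7, 10.63, 11.05 and 10.02 in day7+1 and 9.77, 9.45 and 9.88 in day8. Single arrays of day6+1 and day7 lay more than 1 log2 unit from others of their group. Its differences of 0.86 between day6+2 and day6+1 and 0.83 between day7+1 and day7 did not pass, and the first was 0.45 without day6+1 replicate 1 and day7 replicate 1 together.

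EMBV3_40202, the steadiest of the TDG probes above the negative controls on all arrays, read 9.48, 9.55 and 9.67 in day6, 9.77, 9.93 and 10.06 in day6+1 and 9.70, 10.19 and 9.96 in day6+2. Day7 averaged 9.88 ± 0.13 (SD, n = 3), from a lowest array of 9.75. Later groups read 9.51, 10.11 and 9.82 in day7+1 and 9.89, 9.90 and 9.50 in day8. All day6+1, day6+2 and day7 arrays lay above all day6 arrays, by group differences of 0.35, 0.39 and 0.32, none of which passed. The other 3 TDG probes, EMBV3_09994, EMBV3_10226 and EMBV3_12923, ranged from 6.52 to 7.82. EMBV3_10226 differed by -0.43 in day8 minus day6+2 (adjusted p = 0.363 in limma), without overlap, which held for 15.3% of all probes. EMBV3_12923 was above the negative controls on 4 of 18 arrays and on 0 of those of day6+2, day7 and day8.

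**Figure D4:**
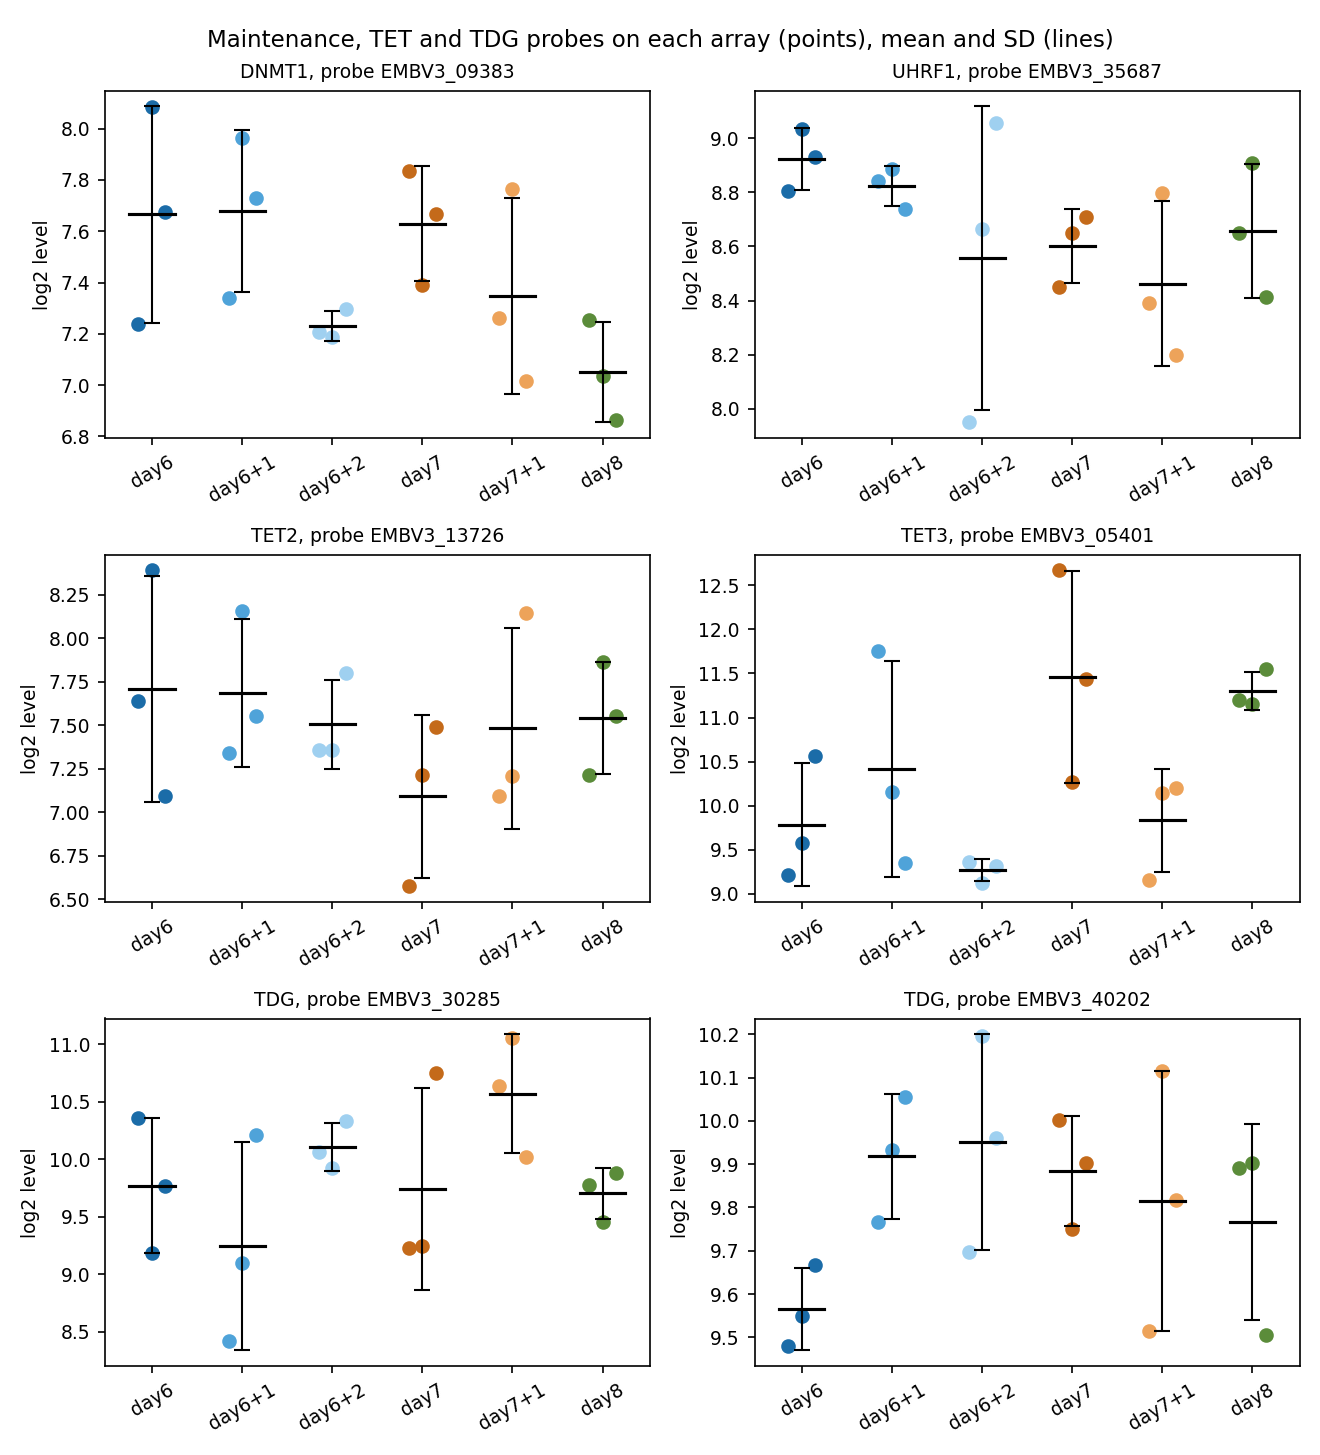
Log2 levels (vertical axis, each panel with its own range) of probes of DNMT1, UHRF1, TET2, TET3 and TDG on each array (points) by group (horizontal axis), with the mean (bar) and SD (whiskers) of 3 arrays. TET3 spans 9.13 to 12.67, the widest range, and its day8 arrays lie above 11 while its day6+2 arrays lie below 9.4.

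Whether an extra day acted alike after cavity formation on day 7 and on day 6 was tested as an interaction, in which 0 of the 17 member probes and 0.005% of all probes passed. The largest value among the members was that of TET3, -2.25 ± 0.72 (SE; adjusted p = 0.427 in limma). It was -0.98 without day7 replicate 1 and day6+1 replicate 1 together (adjusted p = 0.789), and -1.64 and -1.59 without each alone. That of DNMT3A EMBV3_24520 was -0.76 ± 0.25 (adjusted p = 0.445). For DNMT3B it was 0.46, with a 95% interval from -0.24 to 1.16, and 0.19 without those 2 arrays. At the same day of culture, day7 minus day6+1, no member probe passed, nor did any of the 39991 probes (2100 had an unadjusted p under 0.05), and DNMT3B differed by -0.22. Between day8 and day7 none of the 17 passed, against 0.0175% of all probes (7 probes, but 365 without day7 replicate 1), and the member with the smallest p was DNMT1 EMBV3_09383 at -0.58 ± 0.23 (adjusted p = 0.432).

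**Figure D5:**
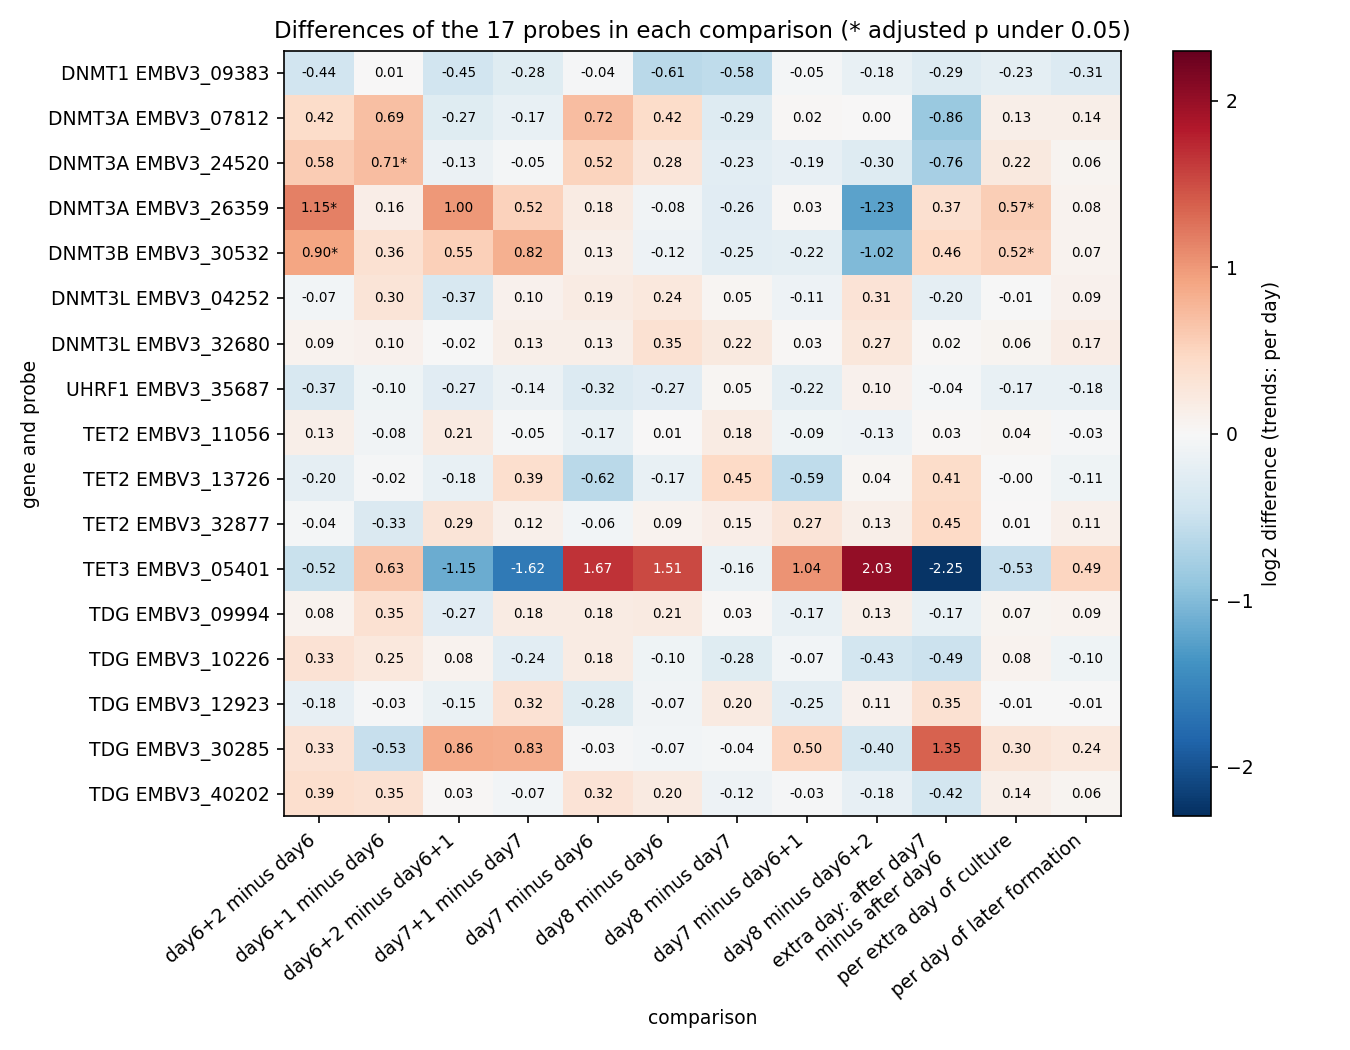
Log2 differences of the 17 member probes (rows) in the 9 pairwise comparisons, the interaction and the 2 trends per day (columns), with an asterisk where the adjusted p was under 0.05. The asterisks lie on DNMT3A and DNMT3B rows, and the TET3 row holds the largest differences, up to 2.03 between groups.

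The authors' deposited table, which was background-subtracted and quantile normalized by the authors, placed the groups in the same order of means for DNMT3B. DNMT3B averaged 10.98 ± 0.14 in day6, 11.34 ± 0.40 in day6+1, 11.87 ± 0.37 in day6+2, 11.11 ± 0.25 in day7, 11.90 ± 0.30 in day7+1 and 10.86 ± 0.27 in day8 in the authors' deposited table (SD, n = 3 each). EMBV3_26359 averaged 10.52 ± 0.32 in day6 and 11.66 ± 0.39 in day6+2 there. TET3 averaged 9.35 ± 0.12 in day6+2 and 11.31 ± 0.21 in day8 there.

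Across the 18 arrays the member probes that went together most were DNMT3B and DNMT3A EMBV3_26359, at r = 0.83. DNMT3B went against TET3 at r = -0.64. Among 14535 named genes, each by its brightest probe, those most like DNMT3B were LIMA1 (r = 0.86), DAB2 (r = 0.79) and GPX4 (r = 0.79). LIMA1 was also among the 3 most like EMBV3_26359 (r = 0.81), beside RPS18 (r = 0.83) and PRDX5 (r = 0.81). EMBV3_24520 was most like AASS (r = 0.86), ACY1 (r = 0.86) and DHTKD1 (r = 0.85). LIMA1, an actin-binding protein, was at 11.24 ± 0.38 in day6, 12.01 ± 0.44 in day6+2, 11.95 ± 0.35 in day7+1 and 11.09 ± 0.13 in day8 (log2 level, SD, n = 3 each).

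Genes that work with the members were described by 6 lists, each gene by its brightest probe. In day6+2 against day6, 6 of the genes tested fell and 1 rose, where 1.22% of all probes fell and 2.22% rose. The 2 sides are unlike, because all probes include dim probes and probes without a gene symbol. No share over the brightest probe of each gene was computed. Of 20 partners of maintenance methylation and chromatin enzymes, 2 fell. SETDB1, a histone H3 lysine 9 methyltransferase, fell by 0.92 ± 0.20 (SE; adjusted p = 0.00822 in limma), and EZH2, the enzyme of Polycomb repressive complex 2, fell by 0.71 ± 0.19 (adjusted p = 0.033). Of 5 genes that protect imprints and the zygotic genome, 1 fell: DPPA3, which shields the maternal genome of the mouse zygote from TET3, by 1.31 ± 0.24 (adjusted p = 0.00234).

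DPPA3 stood at 13.41 ± 0.19 in day6, 12.67 ± 0.19 in day6+1, 12.09 ± 0.22 in day6+2, 12.84 ± 0.09 in day7, 12.68 ± 0.65 in day7+1 and 12.63 ± 0.27 in day8 (log2 level, SD, n = 3 each). It was thus highest in day6 and lowest in day6+2, opposite to DNMT3A EMBV3_26359 in that comparison. Of 14 base excision repair genes, 1 fell: the uracil glycosylase UNG, by 1.19 ± 0.23 (adjusted p = 0.0033 in limma). Of 10 genes of methyl donor supply and use, 1 fell: the glycine methyltransferase GNMT, which uses the donor, by 1.14 ± 0.24 (adjusted p = 0.00766 in limma).

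Of 14 TET partners and genes of cofactor supply, 1 fell in the same comparison: PRDM14, a pluripotency factor that represses DNMT3B in mouse stem cells, by 0.99 ± 0.25 (adjusted p = 0.0283 in limma). PRDM14 was also the 1 gene of all 6 lists that passed in day6+1 against day6, where it fell by 1.13 ± 0.25 (adjusted p = 0.0267) and 0.368% of all probes fell. Of 12 methyl-CpG readers, 1 rose in day6+2 against day6: ZBTB4, by 1.03 ± 0.24 (adjusted p = 0.0137). ZBTB4 was also lower in day8 than in day6+2, by a difference of -1.03 ± 0.24 (adjusted p = 0.0494), where 0.188% of all probes fell.

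The list medians in day6+2 against day6 were -0.26 for the maintenance and chromatin partners, -0.10 for the readers and -0.27 for imprint protection. They were -0.13 for base excision repair, -0.23 for the TET partners and -0.20 for methyl donor supply and use, against -0.02 over all probes. That -0.02 is not a median over brightest probes, so it is no matched background for the lists. Other probes of the same genes moved less: -0.10 for EZH2, 0.07 and 0.27 for ZBTB4, -0.77 for DPPA3, -0.20 for UNG, -0.18 for PRDM14 and -0.99 for GNMT. With each array centred on its median, SETDB1 (-0.75, adjusted p = 0.062), EZH2 (-0.53, adjusted p = 0.356) and PRDM14 (-0.83, adjusted p = 0.0819) no longer passed. EZH2 did not pass either with background subtraction (adjusted p = 0.111), within slide 1 (0.175), with a variance that depends on intensity (0.053) or with only the arrays compared (0.05).

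Leaving out 1 array ended some calls of day6+2 against day6. SETDB1 did not pass without day6 replicate 2 (adjusted p = 0.0594) or day6+2 replicate 1 (0.0688), GNMT without day6+2 replicate 1 (0.0576), and EZH2 without any 1 of the 6 arrays compared (0.0594 to 0.158). PRDM14 did not pass without day6 replicate 1 (0.0581), day6 replicate 2 (0.204), day6+2 replicate 2 (0.107) or day6+2 replicate 3 (0.12), and ZBTB4 without day6 replicate 2 (0.121), day6+2 replicate 1 (0.0671) or day6+2 replicate 3 (0.0582). DPPA3 and UNG passed under all 29 alternatives run. The PRDM14 difference of day6+1 from day6 did not pass without day6 replicate 1 (0.0615), day6 replicate 2 (0.209), day6+1 replicate 2 (0.183) or day6+1 replicate 3 (0.0668), nor with median centring (0.0623), the slide as a fixed block (0.49) or only the arrays compared (0.0501). The ZBTB4 difference of day8 from day6+2 passed under 14 of 28 alternatives.

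Per extra day of culture, SETDB1 fell by 0.41, EZH2 by 0.36, DPPA3 by 0.56, UNG by 0.49 and GNMT by 0.57, ZBTB4 rose by 0.45, and no other gene of the lists passed. ZBTB4 (0.34, adjusted p = 0.0957) and UNG (-0.39, adjusted p = 0.0559) did not pass without day6 replicate 2, nor EZH2 with median centring (-0.31, adjusted p = 0.132). Over all probes 1.28% fell and 2.36% rose in this trend. No gene of the lists passed in the remaining comparisons.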

How the data were processed

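RNA of bovine blastocysts was measured on 18 one-colour arrays. Per the file headers, each scan held the median foreground and local background intensity of every spot, not normalized. The authors' deposited table held log2 values: foreground minus background, quantile normalized, as a rebuild from the scans showed (99.8% of values within 0.1 log2 units). R 3.2.4 and limma 3.28.5 are named in the submitters' processing notes for 9 samples.

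Here limma 3.58.1 (R 4.3.3) was used for normexp background correction of the scans, with an offset of 50, and for quantile normalization between arrays. These values, not the deposited table, gave the reported results, and the table served as an alternative. Probes above the 95th percentile of 153 negative control spots on 3 or more arrays were kept (91.3%). One linear model, fitted to the 6 group means, gave 9 pairwise differences and an interaction, and a model with formation day and extra days as numbers gave 2 trends. P-values were adjusted by Benjamini-Hochberg over 39991 probes. Gene symbols are those of the platform's annotation. The number of arrays limits the precision. In simulated data for day6+2 against day6 (39763 probes), 57 of 100 changes of 1 log2 unit and 97 of 100 of 2 units were recovered, with 6 false calls. The simulated noise was independent for each probe, without a slide effect or a component shared by many probes. These rates may therefore not hold for the real arrays.

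The members, gene lists and tests were chosen with earlier results of these data known. The text names every member probe, up to 4 genes past the threshold with the smallest p of each list and comparison, and the 3 named genes whose brightest probe correlated best with a member probe past the threshold. The replicate numbers were checked for pairing: same-numbered samples correlated by over 0.1 in all 3 pairs only in day6+2 against day6+1 (r = 0.166, 0.112 and 0.234 after removing group means), where a replicate block also gave 0 member probes. The alternatives were another background correction, median centring, no filter, the deposited table, slide or replicate as a block, a variance that depends on intensity, only the arrays of the groups compared, only those of a shared slide, and each array left out.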

Additional observations from a re-analysis of the deposited data

How the results depend on the processing

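All 5 member calls kept their direction under every alternative run. DNMT3B per extra day passed in 28 of 28 (0.47 to 0.62), DNMT3A EMBV3_26359 per extra day in 26 of 28 (0.48 to 0.62) and in day6+2 against day6 in 25 of 29, DNMT3B there in 23 of 29, and DNMT3A EMBV3_24520 in day6+1 against day6 in 9 of 28 (0.62 to 0.86). The 28 per extra day include the run without the day8 arrays and those without a single day6+1 or day8 array. None of these can move that slope. Leaving out an array of another group cannot move a pairwise difference either, so the trend and pairwise tallies overstate how stable the calls are. With 1 array left out, DNMT3B in day6+2 against day6 kept its call in 13 of 18 and EMBV3_26359 in 14 of 18. Every loss was of an array of the groups compared. The count of member probes in day6+2 against day6, 2, was 1 within slide 1. That in day6+1 against day6, 1, was 0 with background subtraction, with a fixed or a random block for the slide, with only the arrays compared, and without day6+1 replicate 1 and day7 replicate 1 together. That in day8 against day6, 0, was 1 with only the arrays compared and 1 without those 2 arrays. That in day8 against day6+2, 0, was 3 with background subtraction, 1 with median centring, 2 with the replicate block, 3 with only the arrays compared and 3 without those 2 arrays. That per day of later formation, 0, was 1 without those 2 arrays. The cause of these shifts was not tested. With 1 array left out the counts ran from 0 to 2 in day6+2 against day6, 0 to 1 in day6+1 against day6, 0 to 3 in day8 against day6+2 and 1 to 2 per extra day, and stayed at 0 in the other 8 comparisons. The replicate block changed no other member call. Median centring changed the higher and lower calls over all probes from 887 and 486 to 1036 and 235 in day6+2 against day6, from 338 and 147 to 435 and 54 in day6+1 against day6, from 357 and 216 to 372 and 72 in day8 against day6, and from 146 and 75 to 66 and 66 in day8 against day6+2. Background subtraction moved the median of all probes to -0.10 in day6+2 against day6. Over all alternatives the count of probes called ran from 770 to 1718 in day6+2 against day6 (1373 reported), from 31 to 726 in day6+1 against day6 (485), from 7 to 1140 in day8 against day6 (573), from 1 to 863 in day8 against day6+2 (221), from 4 to 193 in day7 against day6 (107), from 0 to 596 in day8 against day7 (7), from 0 to 21 in day7+1 against day7 (6), from 0 to 4 in day6+2 against day6+1 (0), from 0 to 1 in day7 against day6+1 (0), from 0 to 70 in the interaction (2), from 756 to 1742 per extra day (1455) and from 0 to 581 per day of later formation (98). Signals close to the negative controls limit what DNMT1, DNMT3L, TET2 and 3 TDG probes can show.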
